A study of Daphnia magna with 12 samples.

Results

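The comparison described here set the libraries of Daphnia magna exposed to C12mimCl against those exposed to C2mimCl, and so followed what changed with the length of the alkyl chain on the same methylimidazolium head group and the same chloride anion. It covers 6 of the 12 libraries of the series, 3 from each salt, chosen by their labels. Daphnia magna is a small freshwater crustacean that is a standard animal of aquatic toxicity testing. C12mimCl carries a dodecyl chain and C2mimCl (1-ethyl-3-methylimidazolium chloride) an ethyl chain. In both groups neonates of the 3rd brood, younger than 10 h at the start, stayed for 48 h without food in the salt at its EC20, the concentration that gives 20% of the measured effect. The Control group, used below to place each gene, had blank ASTM medium under the same conditions. The remaining libraries of the series came from animals exposed to cholinium chloride, also at its EC20 for 48 h. The main fit used all 12 libraries, so the spread behind its p-values also drew on the control and cholinium chloride libraries. Each vessel held 120 animals in 500 mL, and 90 animals still active at the end were pooled from a vessel for its library, and immobile animals are not represented. The vessels were filled from the same cultures, so p-values measure the spread between vessels. The salts are matched by effect and not by amount. Which endpoint defined the EC20, and the molar concentration used, is not given in these sources. This is 1 pair of compounds, compared at 1 dose level and 1 time.

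Imidazolium chlorides are salts built on a charged nitrogen ring. Many imidazolium salts are liquid near room temperature and are used as solvents known as ionic liquids. A long alkyl chain makes the cation hydrophobic at its tail and charged at its head, like a detergent, and such cations enter lipid membranes readily. A short-chain cation stays mostly in water. In tests on aquatic animals the toxicity of imidazolium salts is known to grow with chain length. The files identify genes by number and pair none of them with a name, and 0 of the identifiers were found in the reference gene table, so genes are given by identifier and grouped by level and response, without a function.

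The 3 C12mimCl libraries held 15539051, 13406061 and 13499952 reads in genes, and the C2mimCl libraries 15292524, 13462288 and 12502019. Within its group, C2mimCl replicate 1 differed most. The median gene differed by 0.505 and 0.483 on the log2 scale between that library and C2mimCl replicates 2 and 3, whereas these differed from each other by 0.177, and any pair of C12mimCl libraries by 0.206 to 0.248. From Control replicates 1 and 2, C2mimCl replicate 1 differed by 0.352 and 0.34, less than from its own group. From Control replicate 3 it differed by 0.48, nearly as much as from C2mimCl replicate 3. The controls differed from each other by 0.203 to 0.35. C2mimCl replicates 2 and 3 differed from the controls by 0.334 to 0.427. Between the salts the 9 pairs of libraries differed by 0.52 to 0.687. The counts of genes differing between the salts, by direction, size and interval, are therefore given with and without C2mimCl replicate 1. Reads outside genes made up 9.83%, 10.1% and 8.11% of the C12mimCl libraries, and 7.61%, 5.83% and 6.14% of the C2mimCl libraries, so this share was higher in each C12mimCl library than in any C2mimCl library. In bulk RNA from whole animals, fewer cells of a type and less RNA per cell cannot be told apart.

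The salts left the animals with widely different transcript levels, and the largest differences were transcripts that were nearly absent after C12mimCl. Of 15847 genes tested, 7144 differed (45.1%), with 3230 higher (20.4%) and 3914 lower (24.7%) after C12mimCl than after C2mimCl, in edgeR's quasi-likelihood test at a Benjamini-Hochberg adjusted p below 0.05. Without C2mimCl replicate 1, 8914 of 16212 genes differed (55%), with 4391 higher (27.1%) and 4523 lower (27.9%). Of the 7144 genes, 6635 were called again in the same direction without that library and 0 in the opposite direction. A further 2125 genes tested in both fits were called only without it.

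Separation of the libraries was counted with all 6. In 4089 genes (25.8%) each C12mimCl library lay above each C2mimCl library, and in 4148 (26.2%) each lay below. Of the called genes, 6719 had groups that did not overlap. With the percentage of reads outside genes as a covariate 4668 genes were called, of which 3514 were among the 7144. The balance of direction depended on scaling. Lower genes made up 54.8% of calls under TMM scaling. Scaling by upper quartiles gave 42.7%, and the median log2 difference of all genes was then 0.17 in place of 0.0025. Without C2mimCl replicate 1 the shares were 50.7% under TMM scaling and 41.2% under upper quartiles.

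With all libraries and no covariate, differences of 8-fold or more were mostly losses after C12mimCl. On the fitted scale 218 called genes were higher and 840 lower at that size, and the numbers were 209 and 835 when a salt with fewer than 3 reads was set at a floor of 3 reads over its libraries. With the same floor, 304 genes were at least 64-fold lower and 4 at least 64-fold higher. At 4-fold or more 794 genes were higher and 1298 lower, and at 2-fold or more 1867 were higher and 2500 lower. The excess of lower genes at these sizes turned on C2mimCl replicate 1: without it 1493 genes were higher and 1498 lower at 4-fold or more, and 2884 higher and 2834 lower at 2-fold or more.

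The count of large rises turned on C2mimCl replicate 1. Without it 729 genes were higher and 955 lower by at least 8-fold, or 666 and 952 with the floor, so the rises grew more than 3-fold in number while the falls changed little. At least 64-fold differences without it numbered 14 upward and 361 downward. Without it and with the percentage of reads outside genes as a covariate, 748 genes were higher and 719 lower by at least 8-fold. The median difference among called genes was 2.3-fold for those higher and 2.52-fold for those lower, and without C2mimCl replicate 1 it was 2.67-fold and 2.5-fold.

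**Figure D1:**
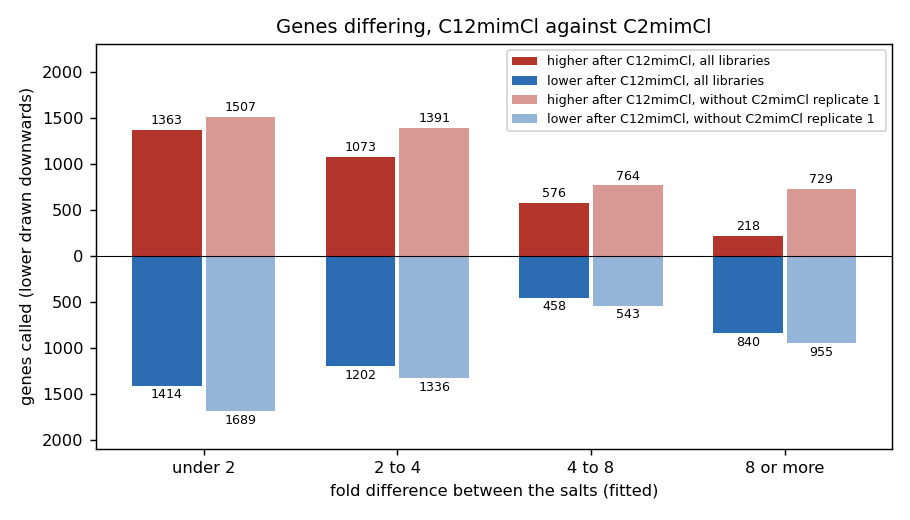
Number of genes called, by fold difference between C12mimCl and C2mimCl; bars above the line count genes higher after C12mimCl and bars below it genes lower, in dark colours with all libraries and in pale colours without C2mimCl replicate 1. At 8-fold or more, 218 genes were higher and 840 lower with all libraries, and 729 and 955 without that library.

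The genes that were at least 8-fold lower after C12mimCl formed a substantial part of the messenger RNA elsewhere. These 840 genes, which were chosen on this difference, held 0.215%, 0.233% and 0.345% of gene reads in the C12mimCl libraries, against 3.54%, 11.6% and 10.5% in the C2mimCl libraries and 7.38%, 4.81% and 7.56% in controls. Their median level was 0.228 to 0.306 CPM (read counts relative to TMM-scaled library size) after C12mimCl, 7.67 to 28.3 CPM after C2mimCl and 10.1 to 20.03 CPM in controls. In share of gene reads the highest C12mimCl library was thus about an order of magnitude below the lowest library of either other group. In median level it was farther below. C2mimCl replicate 1 was lowest among the C2mimCl libraries and lay below each control, and C2mimCl replicates 2 and 3 lay above each control. Between 185 and 213 of the 840 genes had 0 reads in a given C12mimCl library.

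The 218 genes at least 8-fold higher after C12mimCl were less abundant. They held 1.55%, 1.16% and 1.51% of gene reads after C12mimCl, against 0.258%, 0.0723% and 0.089% after C2mimCl and 0.592%, 0.822% and 0.643% in controls. The control libraries lay between the salts, and C2mimCl replicate 1 was the C2mimCl library nearest to them. A 95% Wilson interval on such a share extended at most 0.0178 percentage points to either side, which covers counting error only, since reads without molecular identifiers are not independent molecules.

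**Figure D2:**
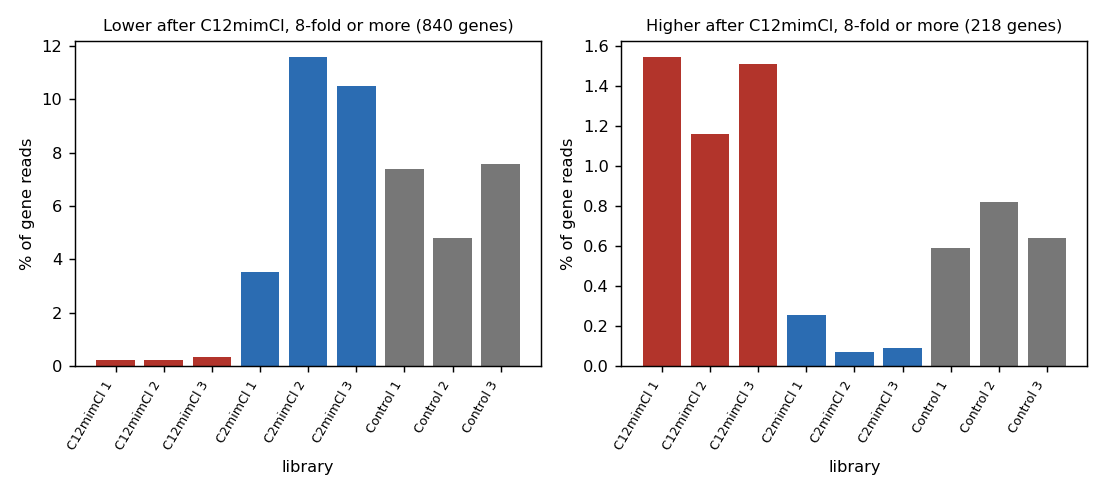
Percent of gene reads in each library held by the 840 genes at least 8-fold lower (left) and the 218 genes at least 8-fold higher (right) after C12mimCl than after C2mimCl, with libraries ordered C12mimCl, C2mimCl, Control. The left bars of C12mimCl do not exceed 0.345%, while those of C2mimCl run from 3.54% to 11.6% and those of controls from 4.81% to 7.56%.

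The medians of each salt's own change against the same 3 controls placed these groups further. They share libraries with the comparison that chose the genes and are given as a description, with C2mimCl replicate 1 included throughout. For the 840 lower genes the median log2 change was -4.90 after C12mimCl and 0.50 after C2mimCl, and for the 218 higher genes it was 1.54 and -1.96. Over all genes tested the medians were 0.031 after C12mimCl and 0.0075 after C2mimCl. Of the 840 lower genes, 797 were called lower than controls after C12mimCl, while 14 were called higher and 6 lower after C2mimCl. Of the 218 higher genes, 106 were called higher than controls after C12mimCl and 16 lower after C2mimCl.

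Genes wholly unread after C12mimCl made the sharpest contrast. In 62 genes the 3 C12mimCl libraries had 0 reads and each C2mimCl library had at least 10, and all 62 were called with and without C2mimCl replicate 1. Their median was 82, 170 and 227 reads in C2mimCl replicates 1, 2 and 3, and 147.5, 78 and 137.5 reads in the controls, each of which had reads for all 62. Against a floor of 3 reads over the C12mimCl group they were at least 18.3-fold to at least 2678-fold lower, with a median bound of 163-fold. Such bounds, here and below, compare reads summed over each group and do not cover the spread between vessels. In the reverse direction 2 genes had 0 reads in each C2mimCl library and at least 10 in each C12mimCl library. Without C2mimCl replicate 1 these counts were 87 and 32.

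Dapma7bEVm018562 had 0, 0 and 0 reads after C12mimCl, against 848, 3327 and 3596 reads after C2mimCl and 1979, 1313 and 1012 in controls. It was at least 2678-fold lower after C12mimCl than after C2mimCl (adjusted p = 0.0031 by edgeR's quasi-likelihood test, and 0.0024 without C2mimCl replicate 1). Each control library lay between C2mimCl replicate 1 and the other C2mimCl libraries. Dapma7bEVm020058 likewise had 0 reads in each C12mimCl library, against 742, 2825 and 2870 reads after C2mimCl and 2165, 1062 and 1545 in controls. By summed reads it was at least 2219-fold lower (adjusted p = 0.0024, and 0.0022 without C2mimCl replicate 1, in edgeR's quasi-likelihood test). Its fitted interval was -19.84 to -8.63. Dapma7bEVm018424, with 0 reads in each C12mimCl library, had 874, 2070 and 2256 reads after C2mimCl and 2171, 1327 and 864 in controls. By summed reads it was at least 1792-fold lower (adjusted p = 0.0035 by edgeR's quasi-likelihood test, and 0.0039 without C2mimCl replicate 1). Its fitted interval was -19.86 to -7.95. In all of these C2mimCl replicate 1 was the lowest C2mimCl library, and the groups stayed far apart.

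Dapma7bEVm028878 and Dapma7bEVm014978 complete the 5 largest falls at a mean of 2 CPM or more. Dapma7bEVm028878 was unread in all C12mimCl libraries, against 230, 2043 and 2405 reads after C2mimCl and 1054, 567 and 755 in controls. By summed reads it was at least 1612-fold lower (adjusted p = 0.0026 by edgeR's quasi-likelihood test). The fitted 95% interval of its log2 difference ran from -19.36 to -8.24. With the percentage of reads outside genes as a covariate its call was lost (adjusted p = 0.063 in the same test). The bound of 1612-fold was not adjusted for that covariate. Dapma7bEVm014978 had 0, 0 and 1 reads after C12mimCl, against 663, 5755 and 5611 after C2mimCl and 2997, 1019 and 2216 in controls. Its ratio rests on that single read and was 12438, with a 95% counting interval of 2232 to 491320 (adjusted p = 0.00092 by edgeR's quasi-likelihood test). That interval covers counting error only, and the fitted 95% interval of the log2 difference ran from -17.96 to -8.62.

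Dapma7bEVm015704 had the smallest p among the lower genes. It had 12, 8 and 10 reads after C12mimCl, against 703, 302 and 312 after C2mimCl and 1140, 917 and 733 in controls. Its level was 0.711 ± 0.0886 CPM after C12mimCl, 31.2 ± 9.69 CPM after C2mimCl and 62.5 ± 6.14 CPM in controls (SD, n = 3 each). The log2 difference between the salts was -5.43 with SE 0.268 (adjusted p = 8.1e-06 by edgeR's quasi-likelihood test), and it was -5.15 with SE 0.18 without C2mimCl replicate 1 (adjusted p = 3.9e-07). Here C2mimCl replicate 1 was the highest C2mimCl library and still lay below each control in CPM.

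Large losses reached some transcripts that were abundant after C2mimCl. Of genes averaging 1000 CPM or more in either salt, a group chosen after its values were seen, 17 were lower and 3 higher by 8-fold or more. Among all 15847 genes tested, 840 were lower and 218 higher at that size. The 20 abundant genes reached 1000 CPM only in the salt where they were higher. The number of genes at that level was not counted, so the 17 and 3 cannot be read as shares. Among the 100 most abundant genes over the 6 libraries, 5 differed by 8-fold or more. All 20 had groups that did not overlap and were called without C2mimCl replicate 1, and 12 lost the call with the percentage of reads outside genes as a covariate. Under that covariate all 20 kept their direction and 12 still differed by at least 8-fold. In 16 of the 17 lower genes C2mimCl replicate 1 was below every control, and in 15 of them C2mimCl replicates 2 and 3 were above every control.

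Dapma7bEVm015455 had 3, 1 and 1 reads after C12mimCl, against 4619, 19799 and 20637 reads after C2mimCl and 17456, 8738 and 9272 in controls. Its level was 0.114 ± 0.0655 CPM after C12mimCl, 1215 ± 813 CPM after C2mimCl and 789.7 ± 251 CPM in controls (SD, n = 3 each). The log2 difference was -13.22 with SE 2.29 (adjusted p = 0.0015 by edgeR's quasi-likelihood test). Dapma7bEVm029332 was also near 0 after C12mimCl, with 4, 7 and 5 reads against 13045, 28282 and 27958 after C2mimCl and 25218, 15600 and 11625 in controls (log2 difference -12.18, SE 2.18, adjusted p = 0.0017 in edgeR's quasi-likelihood test). Both genes were thus among the strongly expressed genes of controls and C2mimCl animals and held at most 7 reads in a C12mimCl library.

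Dapma7bEVm015207 was the most abundant of these 17 and was lowered without being lost. It had 1781, 946 and 5757 reads after C12mimCl, against 12044, 114701 and 64498 after C2mimCl and 54986, 30692 and 77744 in controls. Its log2 difference of -4.64 had SE 1.24 (adjusted p = 0.013 by edgeR's quasi-likelihood test). The size moved with single libraries, to -3.89 without C2mimCl replicate 2 and -5.82 without C12mimCl replicate 3, and the call was lost without C12mimCl replicate 1 (log2 difference -4.34, adjusted p = 0.052) and with the percentage of reads outside genes as a covariate (-0.88, adjusted p = 0.68).

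Among the abundant genes that were higher, Dapma7bEVm001964 had 32104, 17244 and 15973 reads after C12mimCl, against 4087, 1505 and 1047 after C2mimCl and 7694, 9662 and 4736 in controls. Its level was 1522 ± 443 CPM after C12mimCl, 153 ± 82.8 CPM after C2mimCl and 492 ± 131 CPM in controls (SD, n = 3 each). The log2 difference was 3.32 with SE 0.388 (adjusted p = 0.00019 by edgeR's quasi-likelihood test), and 3.84 without C2mimCl replicate 1 (adjusted p = 1.2e-05). The other two were Dapma7bEVm001537, with a log2 difference of 3.09 (adjusted p = 0.018 in edgeR's quasi-likelihood test), and Dapma7bEVm020161, with 3.43 (adjusted p = 0.003). Dapma7bEVm001537 rested on single libraries, since its log2 difference was 5.1 without C2mimCl replicate 1 and its call was lost without C2mimCl replicate 3 (log2 difference 2.56, adjusted p = 0.054) or replicate 2 (2.62, adjusted p = 0.05). The value of Dapma7bEVm020161 was 2.78 without C12mimCl replicate 3.

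**Figure D3:**
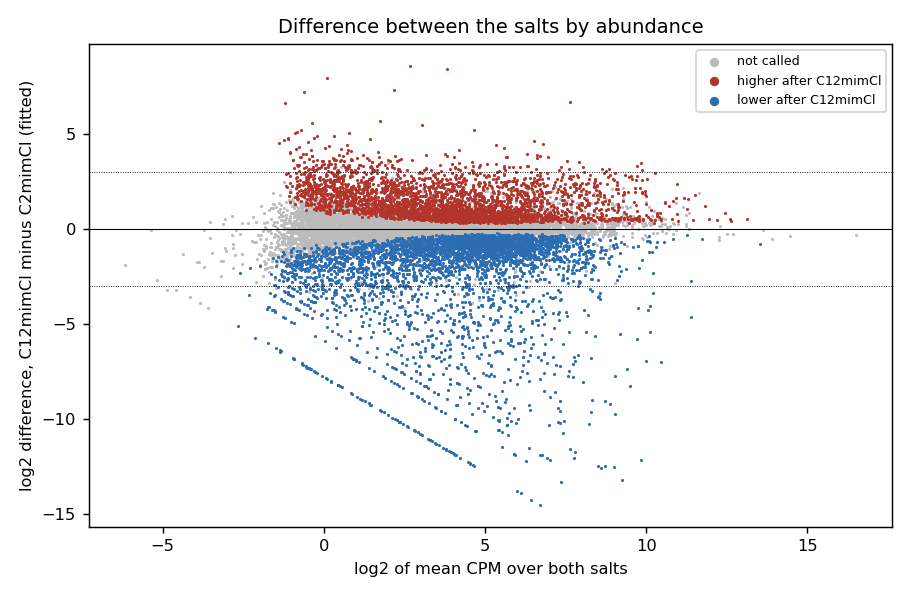
Fitted log2 difference, C12mimCl minus C2mimCl, against the log2 of the mean CPM over both salts, 1 point per gene tested, with called genes in colour and dotted lines at 8-fold. Among called genes 840 lie below the lower dotted line and 218 above the upper one, and the slanting rows of points at the lower left are genes with 0 or very few C12mimCl reads, whose fitted values depend on the prior count.

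Several of the largest rises were in genes nearly unread after C2mimCl. Dapma7bEVm007094, which had the smallest p among the higher genes, had 564, 327 and 307 reads after C12mimCl, against 1, 1 and 1 after C2mimCl and 198, 189 and 118 in controls. The ratio of the salts was 386, with a 95% counting interval of 132 to 1875 (adjusted p = 8.1e-06 by edgeR's quasi-likelihood test, and 4.7e-06 without C2mimCl replicate 1). Its 3 libraries of each group lay close together, and each C2mimCl library held the same number of reads.

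Dapma7bEVm024815 had 353, 154 and 51 reads after C12mimCl, against 0, 1 and 0 after C2mimCl and 17, 52 and 10 in controls. The ratio of 539.7 rests on a single C2mimCl read and had a 95% counting interval of 96.5 to 21353 (adjusted p = 5e-04 by edgeR's quasi-likelihood test, and 0.0017 without C2mimCl replicate 1). Dapma7bEVm018652 had 211, 117 and 60 reads after C12mimCl, against 2, 0 and 0 after C2mimCl and 11, 40 and 6 in controls, a ratio of 188 with an interval of 51.6 to 1555 (adjusted p = 0.00033, and 0.00081 without C2mimCl replicate 1, in edgeR's quasi-likelihood test). In both genes all C12mimCl libraries were above all C2mimCl libraries. The C12mimCl libraries themselves differed several-fold, a spread that the counting intervals do not cover.

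Dapma7bEVm004192 was read in every library of both salts. It had 9316, 4003 and 3852 reads after C12mimCl, against 38, 58 and 54 after C2mimCl and 2222, 3063 and 1006 in controls. Its level was 396 ± 167 CPM after C12mimCl, 3.87 ± 1.38 CPM after C2mimCl and 139 ± 60.7 CPM in controls (SD, n = 3 each). The log2 difference was 6.68 with SE 0.509 (adjusted p = 3.2e-05 by edgeR's quasi-likelihood test), and 6.4 without C2mimCl replicate 1 (adjusted p = 2e-05). Dapma7bEVm011534 had 191, 51 and 47 reads after C12mimCl, against 3, 0 and 2 after C2mimCl and 105, 131 and 25 in controls. Its log2 difference was 5.65 with SE 0.908 (adjusted p = 0.00093 by edgeR's quasi-likelihood test) and fell to 4.84 without C12mimCl replicate 1. The level of that gene was 6.52 ± 4.82 CPM after C12mimCl and 5.65 ± 3.37 CPM in controls (SD, n = 3 each), so its difference between the salts lay on the side of C2mimCl.

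**Figure D4:**
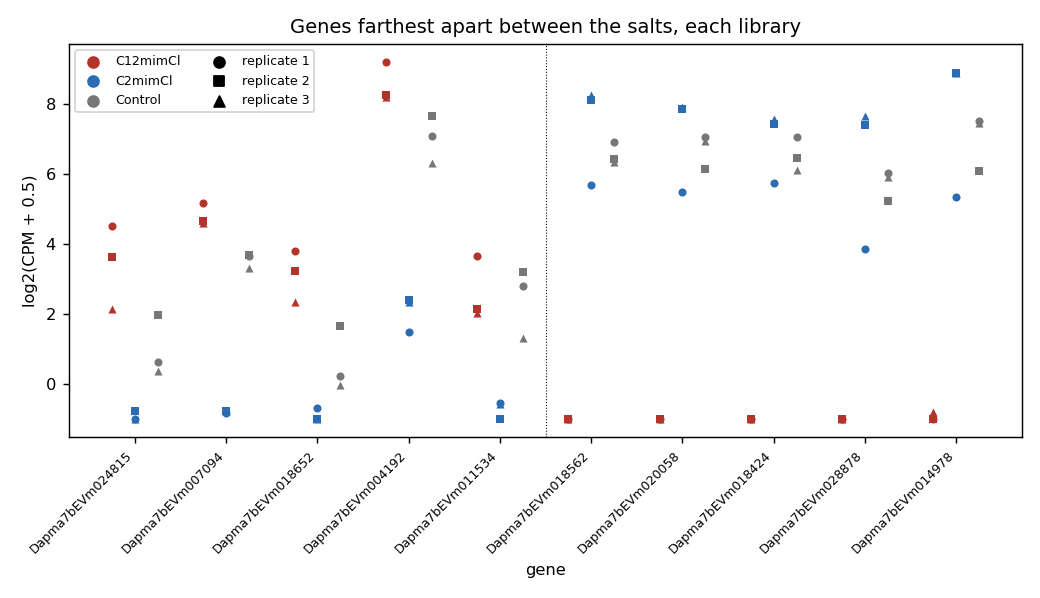
log2(CPM + 0.5) in each library of C12mimCl, C2mimCl and Control for the 5 genes with the largest rises (left of the dotted line) and the 5 with the largest falls (right) after C12mimCl relative to C2mimCl, among genes with a mean of 2 CPM or more over the 6 libraries that were called with and without C2mimCl replicate 1 and whose groups did not overlap. The C12mimCl points of the falling genes sit at the bottom of the scale, with at most 1 read, and C2mimCl replicate 1 lies below the other C2mimCl libraries in each of them.

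The genes with 0 reads in every C2mimCl library were Dapma7bEVm021083 and Dapma7bEVm022297. Dapma7bEVm021083 had 66, 17 and 12 reads after C12mimCl and 5, 13 and 1 in controls, and was at least 30.6-fold higher after C12mimCl than after C2mimCl (adjusted p = 0.0035 by edgeR's quasi-likelihood test). Dapma7bEVm022297 had 28, 16 and 12 reads after C12mimCl and 1, 0 and 0 in controls, at least 18.1-fold higher than after C2mimCl (adjusted p = 0.0011 by edgeR's quasi-likelihood test). The second of these was therefore low in controls as well, while the first was read in each control. The call of Dapma7bEVm021083 was lost with the percentage of reads outside genes as a covariate (adjusted p = 0.077 in the same test). Its bound was not adjusted for that covariate.

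Some genes moved to opposite sides of the controls. Against the shared controls, 35.3% of genes were called after C12mimCl (13.8% higher, 21.5% lower) and 1.43% after C2mimCl (0.776% higher, 0.656% lower). All calls against controls here include C2mimCl replicate 1, and counts without it are not given. Leaving it out lowered adjusted p for C2mimCl against controls in most of the genes named next, by edgeR's quasi-likelihood test. In that test it went from 0.021 to 0.0039 for Dapma7bEVm012509 and from 0.012 to 0.0017 for Dapma7bEVm029447. It went from 0.0041 to 0.00078 for Dapma7bEVm011894, from 0.0066 to 0.0016 for Dapma7bEVm024600 and from 0.0021 to 0.00081 for Dapma7bEVm004192. For Dapma7bEVm007094 it rose from 8.8e-05 to 2e-04 in the same test. Of genes called in both, and between the salts with and without C2mimCl replicate 1, 19 were higher than controls after C12mimCl and lower after C2mimCl, and 25 the reverse. Because the salts share these control libraries, a deviation of the controls enters both changes with the same sign.

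Dapma7bEVm011894 was among the 25. It had 41, 26 and 32 reads after C12mimCl, against 1565, 933 and 1370 after C2mimCl and 398, 303 and 224 in controls. The level was 2.34 ± 0.321 CPM after C12mimCl, 95.4 ± 19.1 CPM after C2mimCl and 20.6 ± 3.34 CPM in controls (SD, n = 3 each), and no group overlapped another. The log2 difference between the salts was -5.34 with SE 0.28 (adjusted p = 8.1e-06 by edgeR's quasi-likelihood test), made up of a log2 change against controls of -3.13 after C12mimCl and 2.21 after C2mimCl. Dapma7bEVm029447 followed with a log2 difference of -4.88 (SE 0.289, adjusted p = 9.3e-06 in edgeR's quasi-likelihood test), from 11, 12 and 8 reads after C12mimCl against 327, 207 and 349 after C2mimCl and 111, 103 and 82 in controls. Dapma7bEVm012509 had a log2 difference of -3.68 (SE 0.303, adjusted p = 3.8e-05 in edgeR's quasi-likelihood test), from 20, 38 and 31 reads against 622, 288 and 264, with 148, 123 and 111 in controls.

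In the reverse pattern, Dapma7bEVm004192 and Dapma7bEVm007094, described above, were among the 19. Dapma7bEVm004192 had a log2 change against controls of 1.52 after C12mimCl and -5.17 after C2mimCl. For Dapma7bEVm007094 the changes were 1.31 after C12mimCl and -7.09 after C2mimCl, the latter resting on 1 read in each C2mimCl library. Dapma7bEVm024600 had 334, 203 and 186 reads after C12mimCl, against 12, 12 and 21 after C2mimCl and 112, 106 and 85 in controls. Its log2 difference between the salts was 3.88 with SE 0.326 (adjusted p = 4e-05 by edgeR's quasi-likelihood test), from a log2 change of 1.31 after C12mimCl and -2.57 after C2mimCl. In Dapma7bEVm004192, Dapma7bEVm007094 and Dapma7bEVm024600 the change after C2mimCl was the larger of the 2.

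The share of genes that differed grew with abundance. By mean CPM over the 6 libraries, 32.9% of 1561 genes under 1 CPM were called, 40.4% of 5641 between 1 and 10 CPM, 48.9% of 7054 between 10 and 100 CPM and 56.5% of 1591 over 100 CPM. Without C2mimCl replicate 1 the shares were 38.4%, 50.8%, 60.2% and 65.7% of the same genes. Lower genes outnumbered higher ones most between 10 and 100 CPM, at 2057 against 1394, and from 1 to 10 CPM there were more higher genes, 1175 against 1105. Depth limits what the low classes can show, since 3.65% of genes under 1 CPM and 52.1% of those between 10 and 100 CPM had an interval within 2-fold.

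The most abundant transcripts differed mainly by small amounts. Of the 100 most abundant genes over the 6 libraries, 34 were higher, 17 lower and 49 not called, and 21 of those called differed by at least 2-fold. The numbers were 36 higher and 19 lower without C2mimCl replicate 1. Dapma7bEVm011496, the most abundant, had 1327604, 1015291 and 1100656 reads after C12mimCl, against 1080529, 1670769 and 1318153 after C2mimCl, and the groups overlapped. Its log2 difference was -0.35 with a 95% interval of -0.98 to 0.27 (adjusted p = 0.33 by edgeR's quasi-likelihood test), and -0.61 without C2mimCl replicate 1 (adjusted p = 0.054).

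The next most abundant genes included called and uncalled differences. Dapma7bEVm015522 had a log2 difference of -0.39 with a 95% interval of -0.8 to 0.024 (adjusted p = 0.11 by edgeR's quasi-likelihood test). Dapma7bEVm020394 had one of -0.52, not called with all libraries (adjusted p = 0.058 in edgeR's quasi-likelihood test) and called without C2mimCl replicate 1 (-0.63, adjusted p = 0.03) and, on the same size, without Control replicate 1 or 3 (adjusted p = 0.049 and 0.047). For Dapma7bEVm009808 the difference was -0.045 with an interval of -0.31 to 0.22.

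Among the called ones, Dapma7bEVm018399 had 8571 ± 966 CPM after C12mimCl and 15072 ± 649 CPM after C2mimCl (SD, n = 3 each), a log2 difference of -0.81 with SE 0.181 (adjusted p = 0.0047 by edgeR's quasi-likelihood test). Its control level was 14195 ± 2620 CPM, close to that after C2mimCl. Dapma7bEVm018420 had 10545 ± 727 CPM after C12mimCl, 7319 ± 446 CPM after C2mimCl and 7113 ± 947 CPM in controls (SD, n = 3 each), a log2 difference of 0.53 with SE 0.156 (adjusted p = 0.019 by edgeR's quasi-likelihood test). That call was lost without C2mimCl replicate 2 (adjusted p = 0.06), C2mimCl replicate 3 (0.084) or C12mimCl replicate 3 (0.064). Both calls were also lost with the percentage of reads outside genes as a covariate, at log2 differences of -0.78 for Dapma7bEVm018399 (adjusted p = 0.075) and 0.70 for Dapma7bEVm018420 (adjusted p = 0.053).

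Many genes were measured closely enough to bound the difference between the chain lengths. In 5988 genes (37.8%) both ends of the 95% interval were less than 2-fold from equality, and 1244 of these were still called. Without C2mimCl replicate 1 the number was 5627. In the opposite case, 2217 genes had an interval wholly beyond 2-fold, 753 of them higher and 1464 lower after C12mimCl. Without C2mimCl replicate 1 there were 3439 such genes, 1597 higher and 1842 lower. Another 3959 genes were not called and had an interval wider than 2-fold, so neither statement can be made for them.

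Above 100 CPM, the interval closest to 0 was that of Dapma7bEVm015007, with 1787, 1615 and 1528 reads after C12mimCl against 1805, 1464 and 1421 after C2mimCl. Its log2 difference of 0.017 had a 95% interval of -0.21 to 0.24. Dapma7bEVm010265 (interval -0.24 to 0.25) and Dapma7bEVm004807 (interval -0.28 to 0.21) were also narrowly bounded. Dapma7bEVm015323 had 857 ± 76.2 CPM after C12mimCl, 858 ± 35.2 CPM after C2mimCl and 579 ± 18.6 CPM in controls (SD, n = 3 each). Both salts were called higher than controls for that gene, with log2 changes of 0.57 after C12mimCl (adjusted p = 0.0041 by edgeR's quasi-likelihood test) and 0.57 after C2mimCl (adjusted p = 0.039), and the log2 difference between them was -0.0014 with an interval of -0.25 to 0.25.

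Each library was then placed among genes chosen without it. The fit was repeated without 1 imidazolium library at a time, and for the genes then called the level of the left-out library was set beside the range of the other salt's 3 libraries. For C12mimCl replicates 1, 2 and 3, 98.4%, 96.9% and 93.9% of these genes had the left-out library on its own salt's side of that range. For C2mimCl replicates 2 and 3 it was 98.3% each. For C2mimCl replicate 1 it was 75.1% of 8760 genes, with 15.6% within the range of the C12mimCl libraries and 9.33% beyond them on the far side. Most genes thus kept their direction in a library that had not chosen them, set against a range of libraries that had. No control library was placed in this way, so the shares do not tell C2mimCl libraries from controls. The difference between these shares was not tested.

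The position of C2mimCl replicate 1 between the groups was also measured. On a scale of log2(CPM + 0.5) where 0 is the mean of the C12mimCl libraries and 1 that of C2mimCl replicates 2 and 3, its median position was 0.6 over 930 genes at least 8-fold lower after C12mimCl in the fit without it. The middle 50% of those genes lay between 0.354 and 0.79. The control mean stood at 0.8 on the same scale. Over 675 genes at least 8-fold higher the median position was 0.47, with 0.36 for the controls. When C2mimCl replicate 2 or 3 was the one left out, the value 1 stood for the mean of the remaining C2mimCl libraries, replicate 1 among them, so those positions are on another scale. On it the medians for replicates 2 and 3 were 1.18 and 1.19 over the lower genes and 1.04 and 1 over the higher genes.

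**Figure D5:**
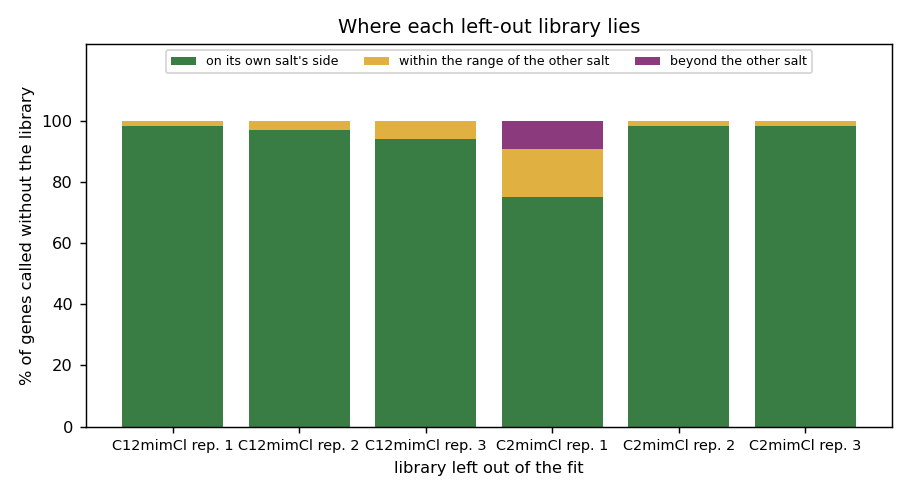
For each imidazolium library left out of the fit, the percent of genes then called in which that library lay on its own salt's side of the range of the other salt's libraries, within that range, or beyond it. The share on the own side is 75.1% for C2mimCl replicate 1 and between 93.9% and 98.4% for the other 5 libraries.

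A few genes set C2mimCl replicate 1 apart from every other imidazolium library. Of 8645 genes averaging 10 CPM or more, 4 were above and 6 below all of the other 5 libraries by at least 8-fold in that library, and 147 and 139 by at least 2-fold. In each of the other 5 libraries the 2-fold counts ran from 2 to 49 above and from 3 to 113 below. The widest gap was in Dapma7bEVm001857, with 33 reads there, beside 1814 and 1879 in C2mimCl replicates 2 and 3, and with 3288, 1719 and 7602 after C12mimCl and 3529, 4483 and 7257 in controls. Dapma7bEVm009922 was also lowest in C2mimCl replicate 1 among the imidazolium libraries, with 986, 488 and 2624 reads after C12mimCl, and 13, 919 and 805 after C2mimCl. Neither gene was called between the salts (adjusted p = 0.42 and 0.57 by edgeR's quasi-likelihood test, and 0.58 and 0.77 without C2mimCl replicate 1).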

How the data were processed

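Per the labels' protocols, stranded mRNA libraries of pooled whole animals were sequenced as 150 bp paired-end reads. The authors deposited raw read counts for 46334 genes, with 5 further entries for unassigned reads. Trimmomatic 0.39, STAR 2.7.3a and HTSeq are named in the submitters' processing notes. For genome build, annotation and strand setting, the sources used here give nothing, which leaves overlapping, antisense and near-identical genes uncertain. The 5 entries entered neither library sizes nor tests, and reads outside genes were at most 10.1% and reads without a unique position 8.45% to 10.0% of an imidazolium library. Depth was 12502019 to 15539051 gene reads per library.

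The counts were fitted with edgeR 4.0.16 (R 4.3.3): expression filter (minimum count 10, minimum total 15), TMM scaling, and a robust quasi-likelihood fit of 1 mean per group to all 12 libraries, with p-values adjusted over all genes. The fit without C2mimCl replicate 1 repeated every step. Standard errors come from the log2 difference and its F statistic. Replicate libraries differed by more than sampling noise (chi-square of at least 17.4 per degree of freedom). Named genes were, in each direction, the smallest p, the 5 largest differences called in both fits at a mean of at least 2 CPM with groups that did not overlap, the highest counts against 0 reads, and opposite changes against controls; also the 6 most abundant, the 4 with the narrowest interval around 0 and 2 in which C2mimCl replicate 1 lay apart. The comparison, its rules and its lists were chosen with earlier results of these data known. Alternatives were RLE and upper-quartile scaling, other filters, DESeq2 1.42.0, limma-voom (limma 3.58.1), fewer libraries, a replicate block, a covariate and an added 2-fold threshold.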

Additional observations from a re-analysis of the deposited data

How the results depend on the processing

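Calls numbered between 5456 and 8914 when 1 C12mimCl, C2mimCl or Control library was left out (cholinium chloride libraries always stayed in), the highest without C2mimCl replicate 1; genes higher ran from 2173 to 4391, lower from 3110 to 4523, at least 8-fold higher from 178 to 729, at least 8-fold lower from 781 to 955, and within 2-fold from 5202 to 6116. In the fit without C2mimCl replicate 1, leaving out a further library of these groups gave 6455 to 9556 calls, 2901 to 4754 higher (lowest without C2mimCl replicate 2) and 3554 to 4802 lower. With the percentage of reads outside genes as a covariate there were 4668 calls, 1945 higher, and 3240 genes within 2-fold. At 8-fold or more 392 genes were then higher and 590 lower. Without C2mimCl replicate 1 the same covariate gave 4857 calls, 2287 higher, 2570 lower and 2480 within 2-fold. At 8-fold or more that fit had 748 genes higher and 719 lower. A test against an added 2-fold threshold called 2074 genes, 665 higher and 1409 lower, and without C2mimCl replicate 1 it called 3587, 1686 higher and 1901 lower. Without the count filter 361 genes were at least 8-fold higher. The genes with 0 reads after C12mimCl numbered 126 when 1 read per library was allowed, and those with 0 after C2mimCl 19 on that rule, 0 with at least 20 reads in each C12mimCl library, and 32 without C2mimCl replicate 1. The alternatives applied to the fit without C2mimCl replicate 1 and to the abundant genes were chosen after seeing the data. The cause of these shifts was not tested. RLE scaling (7084 calls), DESeq2 (7542), limma-voom (7129) and the 6 imidazolium libraries alone (5102) stayed within 1.5 times the main count. A pairing of libraries by replicate number was not established. Deviations of same-numbered C12mimCl and C2mimCl libraries from their group means correlated at 0.137, -0.306 and 0.442 across genes, and not every library correlated best with its own number. The deviations of a group sum to 0, so these values cannot exclude a pairing. With the replicate number as a block 6866 genes were called. Of 926 refitted values of the 49 genes named or counted above, 0 changed sign across the threshold, 26 lost the call and 4 gained it.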

Other observations

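The cholinium chloride libraries, which belong to no comparison above, were low for both groups of genes that stood 8-fold or more apart between the imidazolium salts. The 840 genes lower after C12mimCl held 1.38%, 1.45% and 2.0% of gene reads in these libraries, and the 218 genes higher after C12mimCl held 0.0333%, 0.044% and 0.0727%. Dapma7bEVm007094 had 0 reads in each cholinium chloride library, and Dapma7bEVm004192 had 2, 5 and 3 reads. The 62 genes unread after C12mimCl had a median of 0, 0 and 13.5 reads in cholinium chloride replicates 1, 2 and 3, and 33, 43 and 3 of them had 0 reads there. Dapma7bEVm001857, low in C2mimCl replicate 1, had 33 and 43 reads in cholinium chloride replicates 1 and 2 and 1226 in replicate 3.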
